A study of Mus musculus with 2 samples.

Results

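The MYC network is a set of proteins, most of them DNA-binding, many of which pair with MAX. The 10 members described here were *Myc*, *Bmyc*, *Mycl*, *Max*, *Mxd1*, *Mxd3*, *Mxd4*, *Mxi1*, *Mlx* and *Mga*. They were chosen by gene symbol, and all 10 were found among the 27998 genes of the deposited matrices. Their messages were followed in back skin epithelium of embryonic day 17 (E17) C57BL/6 mice by single-cell RNA sequencing of mRNA 3′ ends. The control library carried *Mettl3* fl/+, Rosa16-YFP fl/+ and K14Cre, and the conditional knockout (cKO) library carried *Mettl3* fl/fl with the same reporter and Cre. K14Cre is active in the keratinocytes of epidermis and hair follicles, so the control had also lost 1 *Mettl3* allele there, and the sorted YFP+ cells are those in which Cre had acted. These cells were also sorted by surface integrins to enrich for progenitors, so they need not represent every layer in full. *Mettl3* encodes the methyltransferase that places N6-methyladenosine (m6A) on mRNA. The number of embryos in each library is not given in the sources used here, and with 1 library per condition a difference between them could not be tested.

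MYC, with its relatives encoded by *Mycl* and *Mycn*, pairs with MAX and binds the E-box CACGTG to activate genes of growth, ribosome production and metabolism. The MXD proteins, among them MXI1, pair with the same MAX and bring the SIN3 and histone deacetylase repressors to E-boxes, and they are known for their part in cells that stop dividing and differentiate. MLX is a partner for some MXD proteins and for the glucose-sensing MONDO proteins, and MGA joins MAX to a Polycomb repressor complex. BMYC resembles the amino-terminal part of MYC but lacks the domain that binds MAX and DNA. In epidermis, MYC is known for driving progenitors to divide and to leave the stem cell state, and MXD1 is known from differentiating keratinocytes.

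A pair of short sequences was searched in these genes, the E-box and a motif of m6A. The E-box was searched in promoter windows of RefSeq (build GRCm38.p6) that run from 250 bases before to 50 bases after a gene's start. For 9 of the 10 members windows could be searched, 11 in all since *Mxi1* had 3, and 3 of the 11 held CACGTG, which reads alike on both strands, against 7.15% of all 32851 windows. A match is not a bound site, and binding was not measured in these libraries. The 3 matches are shown because they place the network's own binding letters, in capitals, at members of the network. They lie on chromosome 12 at chr12:76962226-76962271 (minus strand) for *Max*, at chr5:34187904-34187949 (minus strand) for *Mxd4* and at chr11:101087230-101087275 (plus strand) for *Mlx*. The first base of the E-box stood at position -3 for *Max*, -219 for *Mxd4* and -40 for *Mlx*, counted from the RefSeq start.
Max: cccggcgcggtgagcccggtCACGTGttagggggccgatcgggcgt
Mxd4: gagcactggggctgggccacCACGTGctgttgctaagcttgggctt
Mlx: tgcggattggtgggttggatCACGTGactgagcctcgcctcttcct

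The second sequence is GGACT, a frequent form, in DNA letters, of the motif whose A is methylated by METTL3. It was counted on the coding strand of the longest annotated coding sequence of each gene (GENCODE vM21, GRCm38), over 21901 genes with a median of 1.03 per kb and with none in 28.4% of genes. *Bmyc* held 2 in 510 coding bases, or 3.92 per kb, and 97.6% of genes had a lower density. *Mxd3* held 2 (3.24 per kb) and *Myc* held 4 (2.94 per kb), with 95.1% and 93.1% of genes lower. *Max* (2.08), *Mxd1* (1.47) and *Mlx* (1.12 per kb) lay above the median, and *Mycl* (0.906) and *Mga* (0.548 per kb) below it. *Mxd4* and *Mxi1* held none in 627 and 885 coding bases. A match is not a methylated site, and methylation was not measured in these libraries. Both *Bmyc* matches are shown, since *Bmyc* was past 1.5-fold in all 3 groups of cells described below. They start at coding bases 42 and 366 of its single exon, at chr2:25706947-25706991 and chr2:25707271-25707315 on the plus strand, with GGACT in capitals.
Bmyc, coding base 42: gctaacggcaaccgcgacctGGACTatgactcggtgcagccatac
Bmyc, coding base 366: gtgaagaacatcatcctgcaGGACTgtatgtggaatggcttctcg

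The members are spread over 9 chromosomes of GRCm38, and only *Bmyc* and *Mga* share one, chromosome 2. *Myc* spans chr15:61985391-61990374, *Bmyc* chr2:25706739-25707721, *Mxd4* chr5:34173883-34187720 and *Mxd3* chr13:55325168-55329823. *Mycl* lies at chr4:122995652-123002485, *Max* at chr12:76937269-76962201, *Mxd1* at chr6:86647042-86669161, *Mxi1* at chr19:53310518-53375810, *Mlx* at chr11:101087277-101092207 and *Mga* at chr2:119897228-119969581. Transcripts of different members shared no stretch of 57 bases, the length of the RNA read, so a read without mismatch cannot be shared between members. *Mxd3* overlaps *Prelid1* and *Mlx* overlaps *Psmc3ip*, each on the opposite strand, and both neighbours had reads (13003 and 8301 UMIs for *Prelid1* in the control and cKO kept cells, 1606 and 1260 for *Psmc3ip*). Whether counting used strand is not given in the sources used here. The antisense neighbours of *Bmyc* and *Mxd4* had at most 3 UMIs in a library.

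Cells were taken as barcodes on which 1800 or more genes were found, 4447 for the control and 3577 for the cKO, and their medians were 8941 and 8581 unique molecular identifiers (UMIs, 1 per captured RNA molecule). Marker genes placed each cell in a basal, a suprabasal or a hair follicle gate. The basal gate (*Krt14* and *Krt5* high) held 2670 control and 1724 cKO cells, the suprabasal gate (*Krt1* and *Krt10* high) 417 and 308, and the follicle gate (at least 3 UMIs of *Shh*, *Dkk4*, *Fgf20*, *Lhx2*, *Sox9* and *Krt79*) 955 and 989. Of the markers set aside to check the gates, 5 of 5 basal, 6 of 6 suprabasal and 7 of 8 follicle genes were highest in their own gate in both libraries, and *Lef1* was the exception. Cells in no gate made up 8.59% of the control and 15.0% of the cKO library, and 357 and 343 cells stood within 1 UMI of the follicle limit. *Mettl3* stood at 12.7 and 6.18 CPM (UMIs of the gene scaled to a total of 1000000), although 3′ reads do not check the floxed exon. *Xist* had 89523 UMIs among control cells and 1 among cKO cells, so the libraries differ in the sex make-up of the embryos, which cannot be told apart from genotype, and no member is X-linked. The summed fibroblast markers lay between 74.1 and 944 CPM in the 3 gates, with *Pdgfra* at 0 in the basal and suprabasal gates of both libraries. In the basal gate they stood at 772 CPM in the control and 660 CPM in the cKO, and their part in the results below was not tested. Markers of Merkel cells summed to between 4.27 and 54.6 CPM in the 3 gates, of melanocytes to between 0.848 and 4.76, of endothelium to between 3.11 and 5.43, and of blood to between 29.5 and 88.0 CPM. The libraries shared 16 kept barcodes.

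Levels are UMIs of a gene summed over the cells of a gate, as CPM of the UMIs in that sum. A gene was measured in a gate where its UMIs came to 50 or more across the control and cKO, and a ratio of 1.5-fold or more is called here, without a test. Intervals are 95% and cover counting error only.

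*Bmyc* was the only member past 1.5-fold in all 3 gates. The share of all genes past the limit in all 3 gates was not counted. In single gates 6.71% of measured genes were past it higher in basal, 9.45% in suprabasal and 4.39% in follicle cells. The *Bmyc* level was 54.6 CPM in control and 92.3 CPM in cKO basal cells, 59.6 and 121 CPM in suprabasal cells, and 55.7 and 88.4 CPM in follicle cells. All 3 cKO values stood above all 3 control values, and in the control the gates lay close together. Basal cells of the cKO had a ratio to control cells of 1.69 (1.57 to 1.82), suprabasal cells 2.03 (1.75 to 2.36) and follicle cells 1.59 (1.42 to 1.78). In the basal gate 96.6% of the 10914 measured genes had a lower ratio, in the suprabasal gate 98.2% of 8106 and in the follicle gate 96.8% of 10408. More cells carried the message as well: with each cell thinned to 5500 UMIs, the share with a *Bmyc* UMI was 26.4% (24.7 to 28.1, exact Clopper-Pearson) of control and 38.7% (36.3 to 41.1) of cKO basal cells, and 40.9% and 55.7% before thinning. The RNA outside cells, taken from barcodes with 10 to 100 UMIs, showed a like ratio of 1.77, and the basal ratio with 5% of such RNA subtracted was 1.69.

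*Myc* was past 1.5-fold higher in the cKO in 2 of the 3 gates. It stood at 18.2 CPM in control and 28.5 CPM in cKO basal cells, at 38.5 and 44.9 CPM in suprabasal cells, and at 5.46 and 8.79 CPM in follicle cells. The ratio was 1.57 (1.38 to 1.79) in basal cells and 1.61 (1.12 to 2.33) in follicle cells, while in suprabasal cells it was 1.17 with an interval from 0.939 to 1.45 that holds 1. The follicle value rests on 51 control and 83 cKO UMIs. After thinning, 9.83% (8.71 to 11.05) of control and 14.5% (12.9 to 16.3) of cKO basal cells had a *Myc* UMI, and 14.8% and 20.9% before it. *Myc* in the RNA outside cells had a ratio of 2.09. Its levels there, 13.6 CPM in the control and 28.4 CPM in the cKO, lay above those in follicle cells. How much of the follicle *Myc* came from such RNA was not measured. Over 15 alternatives the basal *Myc* ratio lay between 1.30 and 1.605. It was short of the limit with looser gates (1.48), in cells outside S, G2 and M (1.30) and without a keratin minimum (1.46). In all kept cells without a gate, 1 of these alternatives, the ratio was 1.34, also short of the limit. The follicle ratio was short of the limit under 2 alternatives that kept the gate, stricter gates and thinned cells (1.32). After thinning, 3.87% (2.71 to 5.34) of control and 4.66% (3.38 to 6.24) of cKO follicle cells had a *Myc* UMI, with intervals that overlap.

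*Mxd4*, which encodes a MAX-binding repressor, was lower in the cKO in each gate, and past 1.5-fold in the basal and suprabasal gates. Basal cells held 25.5 CPM in the control and 14.7 CPM in the cKO, suprabasal cells 19.5 and 12.7 CPM, and follicle cells 54.9 and 42.4 CPM. The ratio was 0.576 (0.495 to 0.669) in basal cells, a level 1.74-fold lower, 0.653 (0.448 to 0.940) in suprabasal and 0.771 (0.675 to 0.881) in follicle cells. Only 1.56% of genes measured in the basal gate had a lower ratio, whereas in the follicle gate 10.2% did. The thinned share of basal cells with an *Mxd4* UMI was 12.6% (11.4 to 13.99) in the control and 8.17% (6.90 to 9.60) in the cKO, and 20.3% and 12.4% before thinning. Over 15 alternatives the basal ratio lay between 0.508 and 0.769. It was short of the limit in all kept cells without a gate (0.769) and without a keratin minimum (0.683). The suprabasal ratio was short of the limit under 4 alternatives that kept the gate.

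Counted together, 2 of 10 measured members were past 1.5-fold higher in cKO basal cells (*Myc* and *Bmyc*) and 1 was past 1.5-fold lower (*Mxd4*), against 6.71% and 3.34% of all measured genes. In the suprabasal gate 1 of 9 was higher (*Bmyc*) and 1 lower (*Mxd4*), against 9.45% and 4% of genes, and *Mxd1* was not measured there with 25 and 10 UMIs. In the follicle gate 2 of 10 were higher (*Myc* and *Bmyc*) and 0 lower, against 4.39% and 3.14%. The median log2 ratio over the members was 0.09, 0.14 and 0.11 in the basal, suprabasal and follicle gates, against 0.01, 0.02 and -0.03 over all measured genes. With counts this small, the shares describe the 10 members and no more.

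The basal calls lean on how basal cells are picked. The 5 basal markers not used for gating summed to 6684 CPM in control and 4278 CPM in cKO basal cells. This sum was lower in the cKO outside the basal gate as well. It stood at 4810 and 2737 CPM in suprabasal, 3628 and 2696 CPM in follicle and 4992 and 2888 CPM in ungated cells. Without the *Krt14* and *Krt5* minimum of the basal gate, an alternative chosen after seeing the data, the basal ratio was 1.69 for *Bmyc*, 1.46 for *Myc* and 0.683 for *Mxd4*, so *Bmyc* alone stayed past 1.5-fold.

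**Figure D1:**
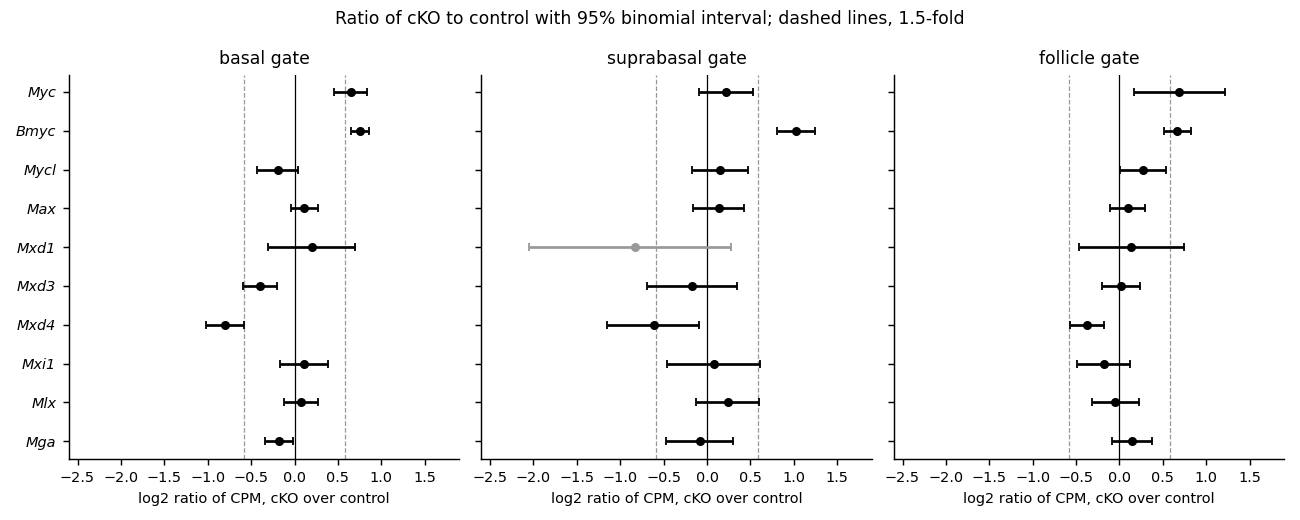
Ratio of cKO to control for each member in the basal, suprabasal and follicle gates, as log2 of the ratio of CPM (x axis), with 95% binomial intervals for counting error. Dashed lines mark 1.5-fold, and the grey point is *Mxd1* in suprabasal cells, which was not measured. *Bmyc* lies right of the upper line in all 3 gates, and *Mxd4* lies left of 0 in all 3.

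Among the activating members, *Mycl*, a paralogue of *Myc*, differed less between the libraries than between the gates. It stood at 16.0 CPM in control and 14.03 CPM in cKO basal cells, at 37.1 and 41.3 CPM in suprabasal cells, and at 23.8 and 28.7 CPM in follicle cells. Its ratios of cKO to control lay between 0.875 (0.741 to 1.03, basal) and 1.21 (1.01 to 1.45, follicle). *Max*, the shared partner, was nearly level: 32.9 and 35.6 CPM in basal, 43.7 and 48.0 CPM in suprabasal and 42.9 and 45.9 CPM in follicle cells. Its 3 ratios lay between 1.07 and 1.10, and each interval held 1.

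Of the other repressors, 0 passed 1.5-fold in a gate in which they were measured. Over all measured genes 6.71% were higher and 3.34% lower in basal cells. The shares were 9.45% and 4% in suprabasal and 4.39% and 3.14% in follicle cells. For so few genes, 0 is near those shares. *Mxd3* stood at 26.4 and 20.1 CPM in basal cells, 16.9 and 15.0 CPM in suprabasal cells and 36.8 and 37.3 CPM in follicle cells, with a basal ratio of 0.761 (0.665 to 0.869). In basal cells outside S, G2 and M that ratio turned to 2.64 (1.02 to 7.10), from 9 and 12 UMIs. *Mxi1* had 10.4 and 11.3 CPM in basal, 14.4 and 15.3 CPM in suprabasal and 20.8 and 18.3 CPM in follicle cells, and each of its ratio intervals held 1. *Mxd1* had the fewest UMIs of the members, with 3.18 and 3.66 CPM in basal and 4.92 and 5.40 CPM in follicle cells, where a UMI was found in at most 2.77% of thinned cells. Its basal ratio was 1.15, with a wide interval from 0.810 to 1.62.

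*Mlx* stood at 20.9 and 22.1 CPM in basal, 28.3 and 33.4 CPM in suprabasal and 24.3 and 23.5 CPM in follicle cells, and the intervals of all 3 ratios held 1. *Mga*, the scaffold of the Polycomb complex, had 33.1 and 29.2 CPM in basal, 29.1 and 27.4 CPM in suprabasal and 31.2 and 34.4 CPM in follicle cells. Its basal ratio of 0.882 (0.787 to 0.987) lay just under 1 and its follicle ratio of 1.10 (0.940 to 1.30) held 1.

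**Figure D2:**
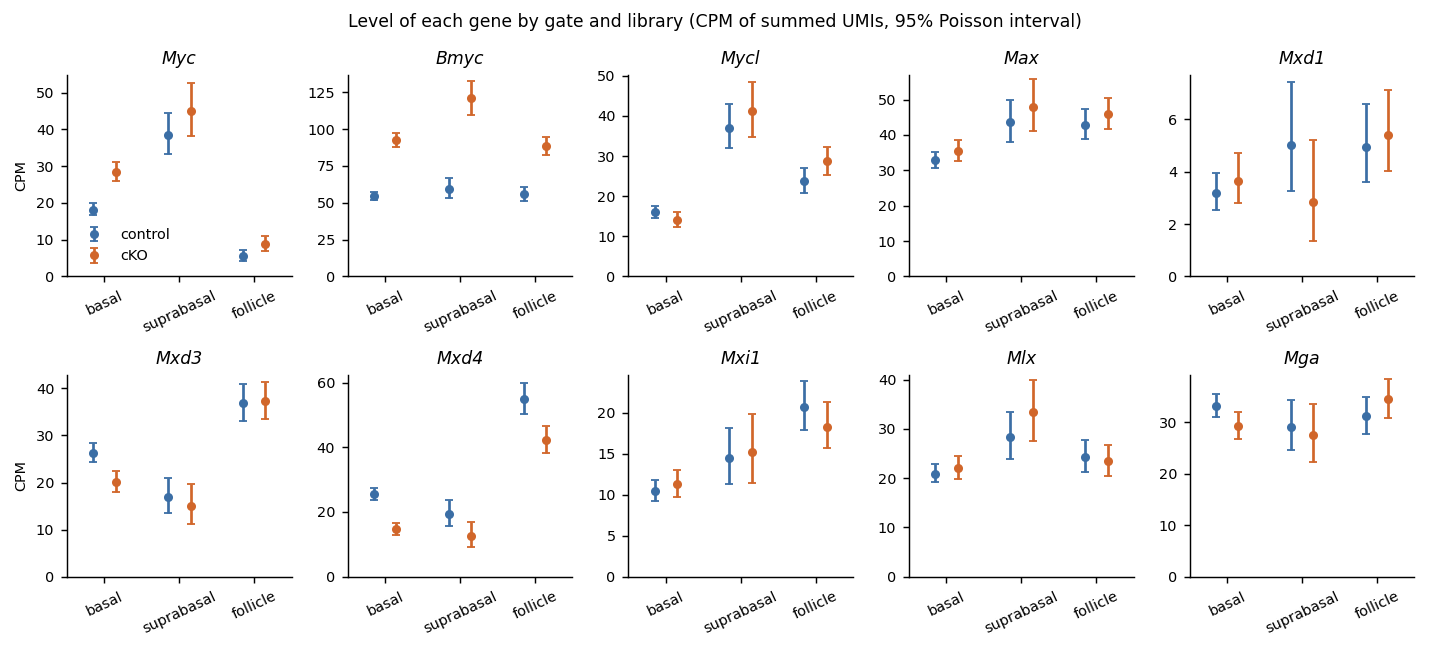
Level of each of the 10 members (y axis, CPM of UMIs summed over the cells of a gate, from 0) in the 3 gates of the control (blue) and cKO (orange) library, with 95% Poisson intervals. *Myc* and *Mycl* peak in suprabasal cells of both libraries, *Mxd4* and *Mxd3* in follicle cells, and the cKO points of *Bmyc* stand above all of its control points.

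Among these sorted cells, the gates differed in their levels of some members. Each gate was set against basal cells within a library, and a member is called where it passed 1.5-fold the same way in both libraries, which differ in genotype and are not replicates. *Myc* in suprabasal cells was 2.12-fold (1.78 to 2.51) its basal level in the control and 1.58-fold (1.31 to 1.89) in the cKO. *Mycl* was 2.31-fold (1.94 to 2.76) and 2.94-fold (2.37 to 3.64) higher there. These 2 of 10 members were higher and 0 were lower, against 8.81% and 15.8% of all 9940 genes. In cells outside S, G2 and M control *Myc* had a ratio of 1.496 and cKO *Myc* one of 1.19, and *Mycl* alone stayed past the limit. The suprabasal cells thus held more of both activators, with a UMI of *Myc* in 18.8% of control cells against 9.83% of basal cells after thinning. *Max* had 1.33 in control and 1.35 in cKO cells, short of the limit, and *Mlx* 1.35 and 1.51, past it in the cKO alone. *Mxd3* lay on the other side with 0.639 and 0.747, past the limit in the control alone, and *Mxd1* had 1.58 and 0.772 from 25 and 10 suprabasal UMIs.

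Follicle cells held little *Myc*. The ratio to basal cells was 0.3004 (0.220 to 0.402) in the control and 0.309 (0.241 to 0.391) in the cKO, or 3.33-fold and 3.24-fold lower, and 3.87% of thinned control follicle cells had a *Myc* UMI. *Mxd4* was 2.15-fold (1.91 to 2.42) and 2.88-fold (2.45 to 3.40) its basal level, and *Mxi1* was 1.99-fold (1.64 to 2.40) and 1.62-fold (1.31 to 2.01). With 2 of 10 higher and 1 lower, the background was 12.5% higher and 3.11% lower of 10516 genes. The median log2 ratio of follicle to basal cells was 0.18 over all genes, and after TMM scaling, which centres most genes, *Mxi1* was 1.42-fold in the cKO and no longer called. *Mycl* (1.48 and 2.05), *Mxd1* (1.55 and 1.48) and *Mxd3* (1.40 and 1.86) passed 1.5-fold in 1 library alone. *Mycn*, the paralogue that is no member of the set, showed the opposite order to *Myc*: 25.6 and 29.4 CPM in follicle cells against 2.52 and 1.95 CPM in basal cells and 3 UMIs in each suprabasal sum. A *Mycn* UMI was found in 11.6% of thinned control follicle cells, against 0.244% of suprabasal cells, the lowest share of any gene and gate given here.

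Ordered by level, *Myc* ran suprabasal, basal, follicle in both libraries, and *Mycl* suprabasal, follicle, basal, with the intervals of neighbours apart at each step. *Mxd4* was highest in follicle cells in both, while its basal and suprabasal levels had intervals that overlapped. For *Mxi1* follicle cells came first and basal cells last, and no neighbours were apart. *Mxd3* ran follicle, basal, suprabasal, with follicle cells apart, and *Mlx* suprabasal, follicle, basal, with suprabasal cells apart in the cKO. *Max* had basal cells last and apart from the other gates, which overlapped. *Bmyc*, *Mga* and *Mxd1* had other orders in the control than in the cKO, and of their neighbours only suprabasal and basal *Bmyc* in the cKO were apart.

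Finer groups of cells split these patterns further. Basal cells were sorted by their UMIs of cycle genes after thinning, with 552 control and 278 cKO cells outside S, G2 and M, 996 and 659 in S and 1045 and 715 in G2 or M. Follicle cells were split into the side with more *Shh*, *Dkk4* and *Fgf20* (WNT-high, 234 and 275 cells) and that with more *Sox9* and *Krt79* (WNT-low, 681 and 685). Early suprabasal cells numbered 407 and 306, and the late ones, 10 and 2, were too few to describe.

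*Mxd3*, known from cycling cells, was concentrated in G2 or M. Its level in basal cells outside S, G2 and M was 2.02 CPM in the control and 5.33 CPM in the cKO, in S it was 5.73 and 7.14 CPM, and in G2 or M 52.3 and 34.5 CPM. The level in G2 or M was 25.9-fold (13.6 to 57) that outside these phases in the control and 6.47-fold (3.64 to 12.7) in the cKO, although only 9 and 12 UMIs stand behind the lower levels. Within G2 or M, cKO cells had 0.659 of the control level (0.569 to 0.762).

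*Mxd4* ran the other way along the cycle. Control basal cells held 46.2 CPM outside S, G2 and M, 29.1 CPM in S and 14.6 CPM in G2 or M, and in the cKO the levels were 25.8, 16.0 and 10.4 CPM. G2 or M stood at 0.316 (0.257 to 0.389) of the level outside these phases in the control and 0.404 (0.285 to 0.575) in the cKO. The cKO was lower in each of these states, with a ratio of 0.558 (0.410 to 0.750) outside S, G2 and M, 0.549 (0.429 to 0.696) in S and 0.712 (0.540 to 0.932) in G2 or M. The 2 sides of the follicle parted: 71.3 and 69.2 CPM on the WNT-high side, with a ratio of 0.970 (0.783 to 1.20), and 48.6 and 32.3 CPM on the WNT-low side, with 0.665 (0.556 to 0.794).

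*Myc* was also lower in G2 or M than in basal cells outside these phases. The levels outside S, G2 and M, in S and in G2 or M were 26.0, 20.4 and 13.6 CPM in the control and 33.8, 32.3 and 24.0 CPM in the cKO. Over the level outside these phases, G2 or M gave 0.522 (0.408 to 0.669) and 0.710 (0.541 to 0.939). The cKO ratio was 1.77 (1.42 to 2.20) in G2 or M, 1.58 (1.28 to 1.94) in S and 1.30 (0.959 to 1.75) in cells outside them, where the interval holds 1.

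*Mycl* separated the sides of the follicle. The WNT-high side held 51.4 CPM in the control and 57.8 CPM in the cKO, and the WNT-low side 13.5 and 16.5 CPM, a ratio of 3.81 (2.87 to 5.06) and 3.49 (2.71 to 4.51). *Mxd3* was lower on the WNT-high side, at 0.542 (0.400 to 0.725) and 0.709 (0.542 to 0.918) of the other. *Bmyc* varied little by cell state in the control, where its level lay between 51.8 and 59.6 CPM in the 6 groups, and in the cKO between 77.2 and 121 CPM. The cKO was higher in 6 of 6 groups with each interval above 1, by 1.49-fold to 2.04-fold.

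Over the same 6 groups, *Myc* was higher in the cKO in 6 with the interval above 1 in 3, and *Mxd4* was lower in 6 with the interval below 1 in 5. *Mlx* had 1.41 (1.00 to 1.98) in basal cells outside S, G2 and M and otherwise lay between 0.912 and 1.23. *Max* reached 1.18 (1.01 to 1.38) in G2 or M, and *Mga* 0.828 (0.701 to 0.975) in the same cells.

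**Figure D3:**
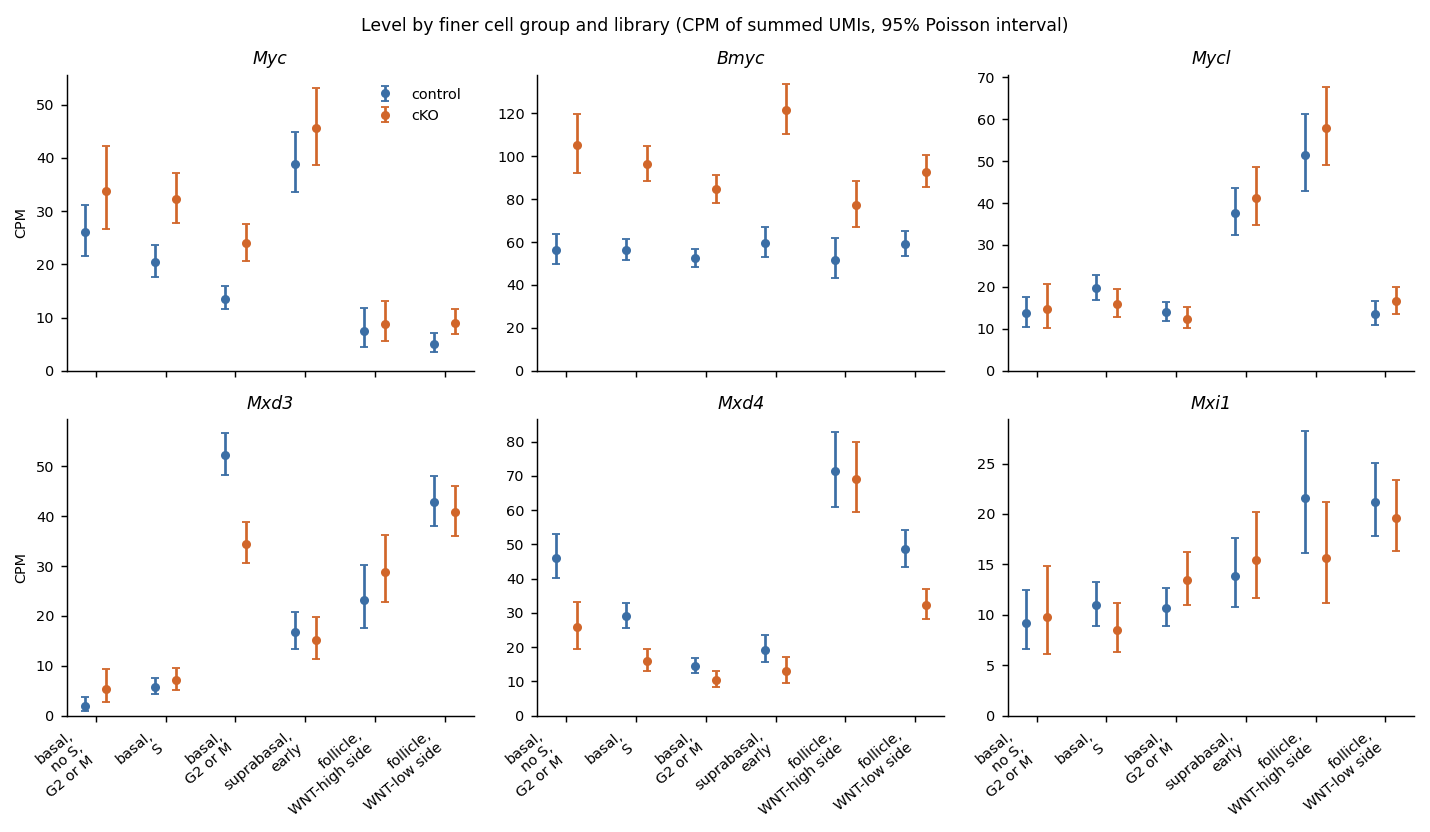
Level (y axis, CPM from 0, with 95% Poisson intervals) of 6 members in 6 finer groups of the control (blue) and cKO (orange) library, where "no S, G2 or M" are basal cells outside these phases. *Mxd3* stands out in basal G2 or M cells at 52.3 and 34.5 CPM, *Mxd4* and *Mycl* on the WNT-high side of the follicle, and *Bmyc* is nearly level across groups within the control.

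Genes whose pattern over the finer groups was most like each member were sought among 8057 genes, by Pearson correlation of log2(CPM + 1) over 14 profiles, the 7 groups of both libraries. The profiles share cells' libraries and depth, so the values are descriptive. *Mxd3* was closest to *Plk1* (0.987), *Nek2* (0.976) and *Dlgap5* (0.974), all mitosis genes, of which *Plk1* helped to define the G2 or M cells. *Bmyc* was closest to *Mrps12* (0.972), *Gadd45gip1* (0.951) and *Cyb5b* (0.947), *Myc* to *P3h4* (0.958), *Tma7* (0.947) and 1500011K16Rik (0.946), and *Mxd4* to *Ccdc8* (0.963), *Fam53b* (0.959) and *Bbc3* (0.958). *Mxi1* came closest to *Lmbr1* (0.981), *Snx11* and *Aplf*, *Mlx* to *Alg3* (0.942), *Fasn* and *Surf4*, *Mga* to *Nsd1* (0.910), *Macf1* and *Crtc2*, and *Mycl* to 1810037I17Rik (0.855), *Tspan5* and *Ifi202b*. *Mxd1* had too few UMIs. Without the late suprabasal profiles, which rest on 10 and 2 cells, 2 of the 27 names found for 9 members recurred, *Plk1* for *Mxd3* and *Mrps12* for *Bmyc*.

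The partners through which the members act were compared by list. Of the 9 SIN3 and histone deacetylase genes that serve the MXD repressors, 0 passed 1.5-fold in any gate, with basal ratios from 0.800 (*Hdac1*) to 1.00 (*Suds3*). Their median log2 ratio in basal cells was -0.09, against 0.01 over all genes. The 12 co-factors and turnover factors of MYC likewise had 0 past the limit, from 0.837 (*Kat5*, an acetyltransferase) to 1.15 (*Usp28*, a deubiquitinase) in basal cells, with a median of -0.07. Over all measured genes 6.71% were higher and 3.34% lower in basal cells, 9.45% and 4% in suprabasal and 4.39% and 3.14% in follicle cells. In lists this short, 0 is near those shares. Of the other network genes, the MAX-binding repressor *Mnt* had 0.950 and *Mlxip*, a MONDO partner of MLX, 0.715 (0.519 to 0.975) in basal cells, where 0 of 3 measured passed the limit. In follicle cells *Mnt* alone did, at 0.664 (0.463 to 0.945), with 8.78 and 5.82 CPM.

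Of the partners of MGA, 2 were past 1.5-fold, both in suprabasal cells. *Rybp*, a Polycomb subunit, had 4.82 CPM in the control and 15.5 CPM in the cKO (3.23-fold, 1.96 to 5.45), and its relative *Yaf2* had 22.7 and 41.3 CPM (1.82-fold, 1.41 to 2.35). These were 2 of 9 measured, against 9.45% of all genes higher there, and in basal cells 0 of 10 passed the limit, against 6.71% higher and 3.34% lower, with *Rybp* highest at 1.28 and *Tfdp1* lowest at 0.744. The median of the list was 0.06 in basal and 0.15 in suprabasal cells on the log2 scale.

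Genes that MYC is known to activate went both ways. All 30 were measured in basal cells, where 2 were past 1.5-fold higher and 1 lower, shares close to the 6.71% and 3.34% of all measured genes, with 17 above and 13 below a ratio of 1 and a median log2 ratio of 0.07. *Polr1b*, a subunit of RNA polymerase I, had 7.77 CPM in the control and 15.4 CPM in the cKO (1.98-fold, 1.64 to 2.39). *Apex1*, a DNA repair nuclease, had 169 and 301 CPM (1.78-fold, 1.71 to 1.86). *Odc1*, the first enzyme of polyamine synthesis and a classic MYC target, was lower, with 163 and 88.6 CPM (0.542, 0.510 to 0.575). In suprabasal cells *Apex1* (1.78), *Polr1b* (1.65) and *Ncl*, which encodes nucleolin (1.55), were past the limit and *Bop1*, a ribosome assembly factor, was at 0.596. These were 3 higher and 1 lower of 30, against 9.45% and 4% of all measured genes. In follicle cells only *Polr1b* (1.70) and *Apex1* (1.59) were past it, 2 higher and 0 lower of 30, against 4.39% and 3.14%. The medians in suprabasal and follicle cells were 0.05 and 0.02.

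Of the genes that MYC and MIZ1 are known to repress, 0 of 5 measured passed the limit in basal and in follicle cells. Over all measured genes 6.71% were higher and 3.34% lower in basal cells, and 4.39% and 3.14% in follicle cells. For 5 genes, 0 is near those shares. *Cdkn1a*, which encodes the cycle inhibitor p21, was highest at 1.38 in basal and 1.27 in follicle cells, and *Gadd45a* lowest at 0.779 and 0.673. In suprabasal cells all 6 were measured and lay below a ratio of 1, with a median log2 ratio of -0.45 against 0.02 over all genes. There *Cdkn2b*, which encodes the cycle inhibitor p15, had 14.05 CPM in the control and 5.94 CPM in the cKO (0.423, 0.246 to 0.696) and *Ndrg1* 147 and 86.8 CPM (0.591, 0.515 to 0.676). These 2 of 6 were past the limit, against 4% of all measured genes lower in suprabasal cells. The glucose-responsive MLX targets *Txnip* and *Arrdc4* had 1.13 and 1.23 in basal, 1.01 and 1.02 in suprabasal and 0.942 and 1.08 in follicle cells.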

How the data were processed

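The authors deposited raw UMI counts per gene and barcode, made with Cell Ranger (2.0 in the submitters' processing notes, while the methods name another version) on mm10, and every barcode is listed, so no cell filter had been applied. The annotation release is not given in the sources used here. Kept cells had at least 1800 genes. Cells with both suprabasal and follicle markers (23 control, 18 cKO) were left out, and no doublet caller was run. Suprabasal cells had *Krt1* plus *Krt10* at 3000 CPM or more, follicle cells less than that, and basal cells *Krt14* plus *Krt5* at 5000 CPM or more, *Krt1* plus *Krt10* under 1500 CPM and at most 1 follicle UMI. S needed 3 UMIs of 12 genes, and G2 or M 4 UMIs of 8 genes, after thinning to 5500 UMIs, which left out 172 control and 244 cKO cells. Counts summed per gate and library gave CPM with exact Poisson intervals and ratios with exact conditional binomial intervals. The gate sums ran from 3538083 to 25747888 UMIs. Python 3.11.15, numpy 2.4.6, scipy 1.17.1, pandas 2.3.3 and matplotlib 3.10.9 were used. The intervals were tried on simulated gene totals with Poisson counting error alone. That check holds no variation between cells or embryos and cannot show how the intervals behave with it. Named beside the members are, for each pathway list, its highest and lowest basal ratio and any gene past 1.5-fold, and the 3 genes most like a member (those for *Max* are not reported here). The members, lists and alternatives were chosen with earlier results of these data known.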

Additional observations from a re-analysis of the deposited data

Results flagged for a closer look

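*Bmyc* was also higher in the cKO outside the 3 gates. In kept cells of no gate it stood at 49.3 CPM in the control and 94.6 CPM in the cKO, a ratio of 1.92 (1.604 to 2.31). In barcodes with 1000 genes or more that stayed below the limit for a cell, the ratio was 1.65 (1.45 to 1.87), from 57.4 and 94.7 CPM. In the RNA outside cells it was 1.77 (1.53 to 2.04), from 66.3 and 117 CPM.

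*Myc* in the RNA outside cells had 13.6 CPM in the control and 28.4 CPM in the cKO, a ratio of 2.09 (1.53 to 2.87) from 70 and 106 UMIs. In kept cells of no gate its ratio was 1.19 (0.839 to 1.71).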

How the results depend on the processing

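Counts of members past 1.5-fold moved as follows. The share of all genes past the limit under each alternative is not given here. The moved counts are therefore no result about the members. For cKO over control the suprabasal count went from 2 to 1 (*Mxd4* lost) with at least 1000 or 2500 genes per cell, at most 10% mitochondrial UMIs or thinned cells. The follicle count went from 2 to 1 (*Myc* lost) with stricter gates or thinned cells. In follicle cells outside S, G2 and M *Mxd4* was called in place of *Myc*. The *Myc* ratio of cKO to control in those cells was 2.27, past 1.5-fold, so its call was not lost to a smaller ratio. A call also needs the minimum of UMIs set for a measured gene. The basal count of 3 became 2 (*Myc* lost) with looser gates or in cells outside S, G2 and M, and 1 (*Bmyc*) without the keratin minimum, an alternative chosen after seeing the data. For suprabasal over basal, the count of 2 became 1 (*Mycl*) with trimmed totals, stricter gates, cells outside S, G2 and M or thinned cells, and 6 at a lower fold limit. For follicle over basal, 3 became 5 with at least 1000 genes, equal weight per cell, stricter gates or without the 5% of cells with most UMIs, and 7 at the lower fold limit, while *Mxi1* was lost with TMM or median of ratios scaling, looser gates or cells outside S, G2 and M. *Mxd3* follicle over basal in the cKO, 1.86, reversed to 0.357 in cells outside S, G2 and M, where few *Mxd3* UMIs remain, and the uncalled basal *Mxd3* ratio of cKO to control, 0.761, turned to 2.64 in the same cells. The cause was not tested. Of the ratios of single members, 948 of the values under alternatives stayed within the interval of the reported value and 61 moved outside it, beside the reversed one. The *Bmyc* ratio of cKO to control stayed between 1.67 and 1.86 in basal, 1.72 and 2.08 in suprabasal and 1.51 and 1.72 in follicle cells over 15 alternatives each. No paired analysis was possible because each condition has 1 library. Depth leaves *Mxd1* and follicle *Myc* the least certain.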

Other observations

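Cells of no gate gave *Mxd4* levels of 33.2 CPM in the control and 31.8 CPM in the cKO, a ratio of 0.956 (0.742 to 1.23). *Mxd1* there had 10.9 and 4.03 CPM, from 38 and 18 UMIs (0.370, 0.199 to 0.664). The same cells held 213 CPM of 4 melanocyte markers in the control and 4.92 CPM in the cKO, with none of the 4 at 0 in either library, and the part of these cells in the *Mxd1* value was not tested.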
